A study of Homo sapiens with 6 samples.

Results

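The nuclear-encoded mRNAs of the mitochondrial respiratory chain were examined for contacts with the translation initiation factor eIF4B. They were taken as the protein-coding genes of GENCODE v44 whose listed name begins with NDUFA, NDUFB, NDUFC, NDUFS, NDUFV, UQCR, ATP5 or COX followed by a digit from 4 to 8, a rule that reads names alone. The rule found 89 genes among the 13668 protein-coding genes with a row in either table, 89 with a row in DoHH-2 and 83 in GM01953. The genes are 7 core subunits, 32 accessory subunits and 8 assembly factors of complex I, 9 genes of complex III, 13 of complex IV and 16 of complex V, together with 2 readthrough genes (NDUFC2-KCTD14 and ATP5MF-PTCD1) and 2 genes that only a former name places in complex V (DMAC2 and DMAC2L). Of the 89, 19 are listed under an older symbol and are given here by the current one.

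eIF4B binding was measured by iCLIP, a method that maps UV cross-links between a protein and RNA to single nucleotides. Its cDNAs end next to the nucleotide that was cross-linked to the protein, so that each count marks a single position. The samples were DoHH-2, a cell line from diffuse large B-cell lymphoma, with 4 replicates, and GM01953, a control B-cell line from a disease-free individual, with 2 replicates. Cells of both lines were untreated apart from UVC cross-linking, and an antibody against endogenous eIF4B was used in both. The replicates had been pooled into 1 table per cell line before deposition, so no spread between replicates could be computed, no test between the lines was possible, and all intervals below cover counting error only. The lines come from different individuals, so cell line and disease cannot be told apart.

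DoHH-2 held 2033156 counts at 1179243 positions and GM01953 held 167197 counts at 78474 positions, so that 1 count was worth 0.492 CPM (counts scaled to a table total of 1000000) in DoHH-2 and 5.98 CPM in GM01953. Histone genes took 16.2% of all DoHH-2 counts and 10.5% of those in GM01953. The B-cell markers MS4A1, CD79A, CD79B, PAX5 and CD74 had counts in both lines, from 13 to 1023 in DoHH-2 and from 7 to 359 in GM01953, and the T-cell genes CD3E and CD3D and the myeloid genes LYZ and CD14 were at 0 in both. Counts were not divided by mRNA abundance, so more eIF4B per mRNA and more mRNA cannot be told apart.

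The respiratory chain passes electrons from NADH and succinate to oxygen through complexes I to IV and pumps protons across the inner mitochondrial membrane, and complex V uses the proton gradient to make ATP. Most of its subunits are encoded in the nucleus, translated in the cytosol and imported, while a small hydrophobic core is encoded and translated inside mitochondria. eIF4B is a cytosolic cofactor of the helicase eIF4A, which unwinds the 5′ untranslated region (UTR) ahead of the scanning ribosome. Several mRNAs of this family have very short 5′ UTRs, and some start at a TISU element (translation initiator of short 5′ UTR), whose core holds the start codon.

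The strongest single contact sites lay in the coding sequence, beside the start codon and beyond the stop codon. The windows below are the highest positions of the mRNAs whose results follow, read from the reference mRNA 5′ to 3′ (GENCODE v44 on GRCh38, letters as DNA), with the cross-linked nucleotide in capitals.
ATP5F1A, chr18:46095092-46095116, minus strand: ttgggttcatctTtcattgctgcaa
COX4I1, chr16:85806900-85806924, plus strand: gcgcctggctctGtcaccgccatgc
COX7C, chr5:86617995-86618019, plus strand: aggtgccgccatTtcatctgtcctc
ATP5MC3, coding sequence, chr2:175180131-175180155, minus strand: atacagaccaatTtctgcatcagtg
ATP5MC3, beyond the stop codon, chr2:175178270-175178294, minus strand: catgtaacaaatTactgcttgacat
NDUFA11, chr19:5903680-5903704, minus strand: cgccgaaggtttTtcgtcagtactg
ATP5PB, chr1:111449526-111449550, plus strand: tggactttcgttGaccatgctgtcc
NDUFB11, chrX:47142285-47142309, minus strand: ctaagtggggctCaagaagcaccgc

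The position in ATP5F1A, which encodes the alpha subunit of the catalytic F1 head of ATP synthase, is in exon 2 of 12, 87 nt 3′ of the first base of the start codon. It held 43 counts in DoHH-2, the highest value at any position of these mRNAs, and 11 counts in GM01953, where it was the highest of the mRNA too. In COX4I1, a regulatory subunit of complex IV, the highest position was nucleotide 38 of the 3′ UTR in exon 5 of 5, with 36 counts in DoHH-2 and 5 in GM01953. Both sites were therefore seen in each line at the same nucleotide.

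COX7C, a small subunit of complex IV, had its highest DoHH-2 position 49 nt upstream of the start codon, with 32 counts, and 2 counts there in GM01953. The highest position of NDUFA11, an accessory subunit in the membrane arm of complex I, lay 16 nt 3′ of the first base of its start codon, with 31 counts in DoHH-2 and 1 in GM01953. GM01953 thus had few counts at either nucleotide, out of 46 and 31 counts on the mRNAs. ATP5MC3, which encodes subunit c of the rotating ring of ATP synthase, led in DoHH-2 with 31 counts at a nucleotide 74 nt 3′ of the start of its reading frame, where GM01953 had 0. In GM01953 it led with 12 counts at nucleotide 6 of the 3′ UTR, where DoHH-2 had 16. ATP5PB, a subunit of the peripheral stalk of ATP synthase, had 12 counts in GM01953 at a single nucleotide 4 nt upstream of the start codon, against 4 in DoHH-2. NDUFB11, an accessory subunit of complex I, had 11 of its 21 mRNA counts in GM01953 at nucleotide 20 of the 3′ UTR, against 2 in DoHH-2.

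Over all mRNAs of the family, the highest position held a median of 5.53% of the mRNA's counts in DoHH-2 (86 mRNAs with a count) and 25.5% in GM01953 (80 mRNAs), which had fewer counts per mRNA. Of the 49 mRNAs with at least 10 counts at their highest position in DoHH-2, 24 had it in the coding sequence, 10 in the 5′ UTR and 15 in the 3′ UTR, and 13 of the 49 positions also held a count in GM01953. Of the 5 such mRNAs in GM01953, all 5 positions held a count in DoHH-2.

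Most GM01953 positions of the family were also seen in the deeper DoHH-2 table. Of 843 positions with a count in GM01953 on these mRNAs, 593 (70.3%, exact 95% interval 67.1 to 73.4) held a count in DoHH-2 at the same nucleotide, against 38.0% over the mRNAs of all protein-coding genes, which had fewer counts per kb. The shared positions were 5.91% of the family's 10038 DoHH-2 positions, while DoHH-2 counts covered 7.0% of the 143302 nt of mRNA. Within 1 nt the share was 85.4%, and among positions below a false discovery rate (FDR) of 0.05 in both lines, as given by the authors' permutation of counts within genes, it was 70.4% (235 of 334). The covered nucleotides are not spread evenly over the mRNA, so the 7.0% is a description and not an expected share.

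The respiratory chain genes took 23118 counts in DoHH-2, or 1.14% of all counts (exact 95% interval 1.12 to 1.15), and 1625 counts in GM01953, or 0.972% (0.925 to 1.02). Cytosolic ribosomal protein genes (86 genes) took 2.12% in DoHH-2 and 2.11% in GM01953, and mitochondrial ribosomal protein genes (77 genes) took 0.458% and 0.477%. The order of the lines for the respiratory chain rested on how counts were weighed. With each position counted once its share was 0.958% in DoHH-2 and 1.15% in GM01953, the opposite order, and at positions with FDR below 0.05 it was 2.07% and 1.02%. The share of the genes' counts that lay at such positions was 79.8% in DoHH-2 and 58.3% in GM01953, against 48.7% and 66.1% over all protein-coding genes.

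The counts of these genes lay mostly on mature mRNA. Of the counts in the 87 genes with a MANE Select transcript, the single reference transcript used to place positions, 93.6% fell in its exons in DoHH-2 and 93.4% in GM01953, against 78.9% and 77.2% over all protein-coding genes. A gene was called bound when it held more than 20 counts at positions with FDR below 0.05. The authors took RNAs as bound by enrichment over total RNA, a step that this call does not have. In DoHH-2, 78 of the 89 genes (87.6%) were bound, beside 21.8% of all 20046 protein-coding genes, 76 of 86 cytosolic ribosomal protein genes and 60 of 77 mitochondrial ribosomal protein genes. In GM01953, 16 of the 89 (18.0%) were bound, beside 4.22% of all genes, 37 cytosolic and 2 mitochondrial ribosomal protein genes. With DoHH-2 thinned in 1 random draw to the total count of GM01953 and no FDR filter in either line, 37 and 33 of the 89 genes had more than 20 counts, beside 7.65% and 7.44% of all genes. Thinning matched the total count alone, and the tables also differed in the share of positions with a single count, 83.9% in DoHH-2 before thinning and 60.8% in GM01953. All 89 genes have a row in either line, since the rule reads listed names, but of the 20046 protein-coding genes only 13668 do. The shares over all genes include those without a row as not bound, and are lower for it. Shares over genes with a row alone were not computed. The bound counts by complex given below were not matched for depth.

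**Figure D1:**
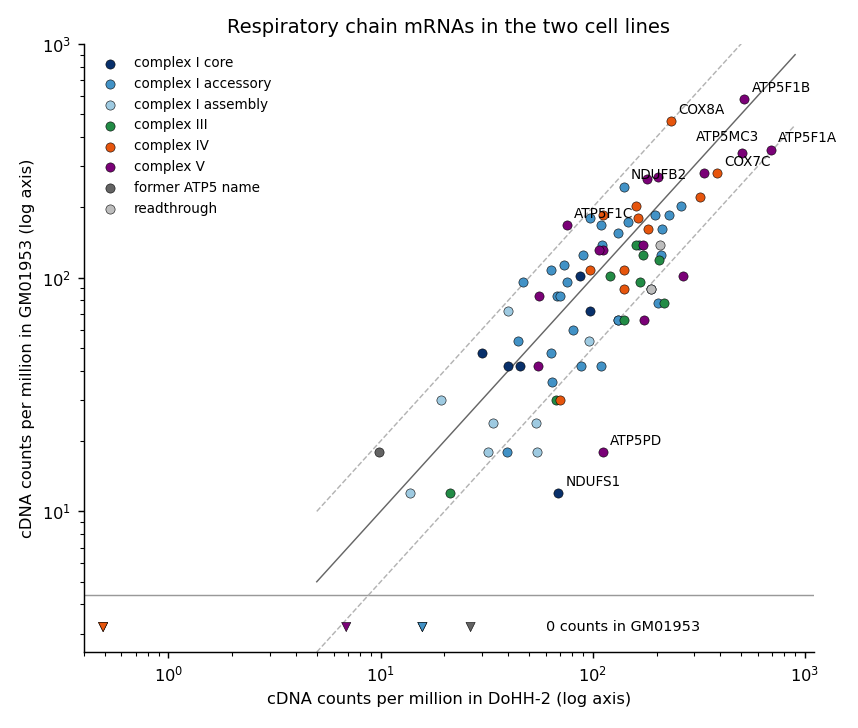
CPM of 88 respiratory chain genes in DoHH-2 (horizontal) and GM01953 (vertical), both on log axes and coloured by role, with the line of equal values and dashed lines at a 2-fold difference. Triangles mark the 6 genes with 0 counts in GM01953 (COX7B2 and COX8C coincide, as do NDUFA4L2 and NDUFA5), and most genes lie between the dashed lines, with NDUFS1 and ATP5PD farthest below.

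Complex V genes had the highest median count of the complexes in DoHH-2, 352.5 over 16 genes, and 22.5 in GM01953, where complex IV had 27. ATP5F1A held 1405 counts in DoHH-2 (691 CPM) and 59 in GM01953 (353 CPM). ATP5F1B, the catalytic beta subunit, held 1053 counts (518 CPM) and 97 counts (580 CPM), the highest count of the family in GM01953. ATP5MC3 held 1032 (508 CPM) and 57 (341 CPM). Bound genes of complex V numbered 15 of 16 in DoHH-2, against 7 in GM01953.

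In complex IV, the terminal oxidase, COX7C led with 786 counts in DoHH-2 (387 CPM) and 47 in GM01953 (281 CPM). COX6C held 651 (320 CPM) and 37 (221 CPM). COX8A, another small structural subunit, held 476 (234 CPM) and 78 (467 CPM), so that it ranked below COX7C and COX6C in DoHH-2 and above both in GM01953. DoHH-2 had 11 bound genes among the 13 of complex IV, and GM01953 had 5. COX7B2 and COX8C, whose expression is known mainly from testis, had 1 count each in DoHH-2 and 0 in GM01953.

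Complex III, the cytochrome bc1 complex, had 8 bound genes of 9 in DoHH-2. It had 0 in GM01953, where its genes held at most 23 counts and the call needs more than 20. UQCR10 held 440 counts in DoHH-2 and 13 in GM01953, UQCRQ 419 and 20, UQCRH, the hinge protein, 351 and 21, and UQCRB, a subunit at the quinone-binding site, 325 and 23. All 4 encode small subunits, with 160 to 216 CPM in DoHH-2 and 77.8 to 138 CPM in GM01953. All 8 complex III genes that passed the minimum level for a ratio had more CPM in DoHH-2 than in GM01953, as did 52.4% of all genes, with ratios from 1.16 to 2.78. The counting interval held 1 for 4 of the 8, UQCRB, UQCRC2, UQCRH and UQCRFS1.

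The complex I accessory subunits, which surround the catalytic core, had a median of 210 counts in DoHH-2 and 16 in GM01953 over 32 genes. NDUFA4, named for complex I but found in complex IV in later work, held 529 counts (260 CPM) and 34 (203 CPM), NDUFA11 467 and 31, and NDUFA1 431 and 27. NDUFB2 led this group in GM01953, with 41 counts (245 CPM) against 285 in DoHH-2 (140 CPM). DoHH-2 had 29 bound genes among the 32, and GM01953 had 4.

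The 7 nuclear core subunits of complex I, which carry the flavin and iron-sulfur clusters, had lower counts, from 61 to 198 in DoHH-2 and at most 17 in GM01953. NDUFV1, the subunit that binds NADH, held 198 and 12 counts, NDUFS3 178 and 17, and NDUFS1 140 and 2. All 7 passed the bound call in DoHH-2, against 0 in GM01953. The 8 assembly factors ranged from 28 to 195 counts in DoHH-2 and from 2 to 12 in GM01953. NDUFAF8 held 195 and 9 counts, NDUFAF3 111 and 3, NDUFAF4 110 and 4, and NDUFAF1, the highest of the group in GM01953, 81 and 12. The share of counts at FDR below 0.05 in DoHH-2 was 37.5% for the core subunits and 46.3% for the assembly factors, against 85.6% for complex IV and 85% for complex V.

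Per length, the family stood above most genes. Over mRNAs with a count, the median level on the mRNA was 114 CPM per kb in DoHH-2 (86 mRNAs) and 86.5 in GM01953 (80 mRNAs), while over all protein-coding mRNAs with a count it was 6.69 and 9.36. In DoHH-2, 63 of the 87 were above 42.8 CPM per kb, and in GM01953, 51 were above 56.8, the levels that 10% of all mRNAs with a count exceeded. COX7C had the highest level in DoHH-2, at 600 CPM per kb of mRNA, followed by NDUFA1 (491), COX8A (462) and COX6C (409), and in GM01953 these 4 had 437, 384, 944 and 289. By group, the DoHH-2 medians were 220 for complex IV, 162 for complex V, 131 for complex I accessory subunits, 81.7 for complex III, 43.4 for the complex I core and 23.3 for assembly factors. Of these 6 groups, complexes IV and V therefore had the highest medians and the assembly factors the lowest on this scale.

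The genes with no count in GM01953 were NDUFA4L2, NDUFA5, COX7B2, COX8C, ATP5MGL and DMAC2, with 1 to 54 counts in DoHH-2. A count of 0 in GM01953 allows up to 3 counts, or 17.9 CPM, so a difference was not detectable for the genes near or below that level.

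For the ratio between the lines, genes were kept when the mean of both CPM values was at least 30, which left 76 of the 89 genes and 6217 genes in all. At least 2-fold higher CPM in DoHH-2 was found for 16 of the 76 (21.1%), beside 20.3% of all genes, and at least 2-fold higher CPM in GM01953 for 2 (2.63%), beside 18.7%. The median ratio of DoHH-2 over GM01953 was 1.25 for the respiratory chain, 1.04 for all genes, 1.01 for 74 cytosolic and 0.994 for 62 mitochondrial ribosomal protein genes. The counting interval of the ratio lay above 1 for 21 genes, below 1 for 7, and held 1 for 48. These interval calls were not counted over all genes, so they have no background share. The family thus had about the background share of genes higher in DoHH-2, and a smaller share higher in GM01953, and this was not tested.

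Counts at FDR below 0.05 alone gave another split. Then 43 of 77 genes were at least 2-fold higher in DoHH-2, beside 17.4% of all genes, and 4 in GM01953, beside 48.7%, and this scaling moved the median log2 ratio of all genes from 0.06 to -0.93 and that of the respiratory chain from 0.32 to 1.14.

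**Figure D2:**
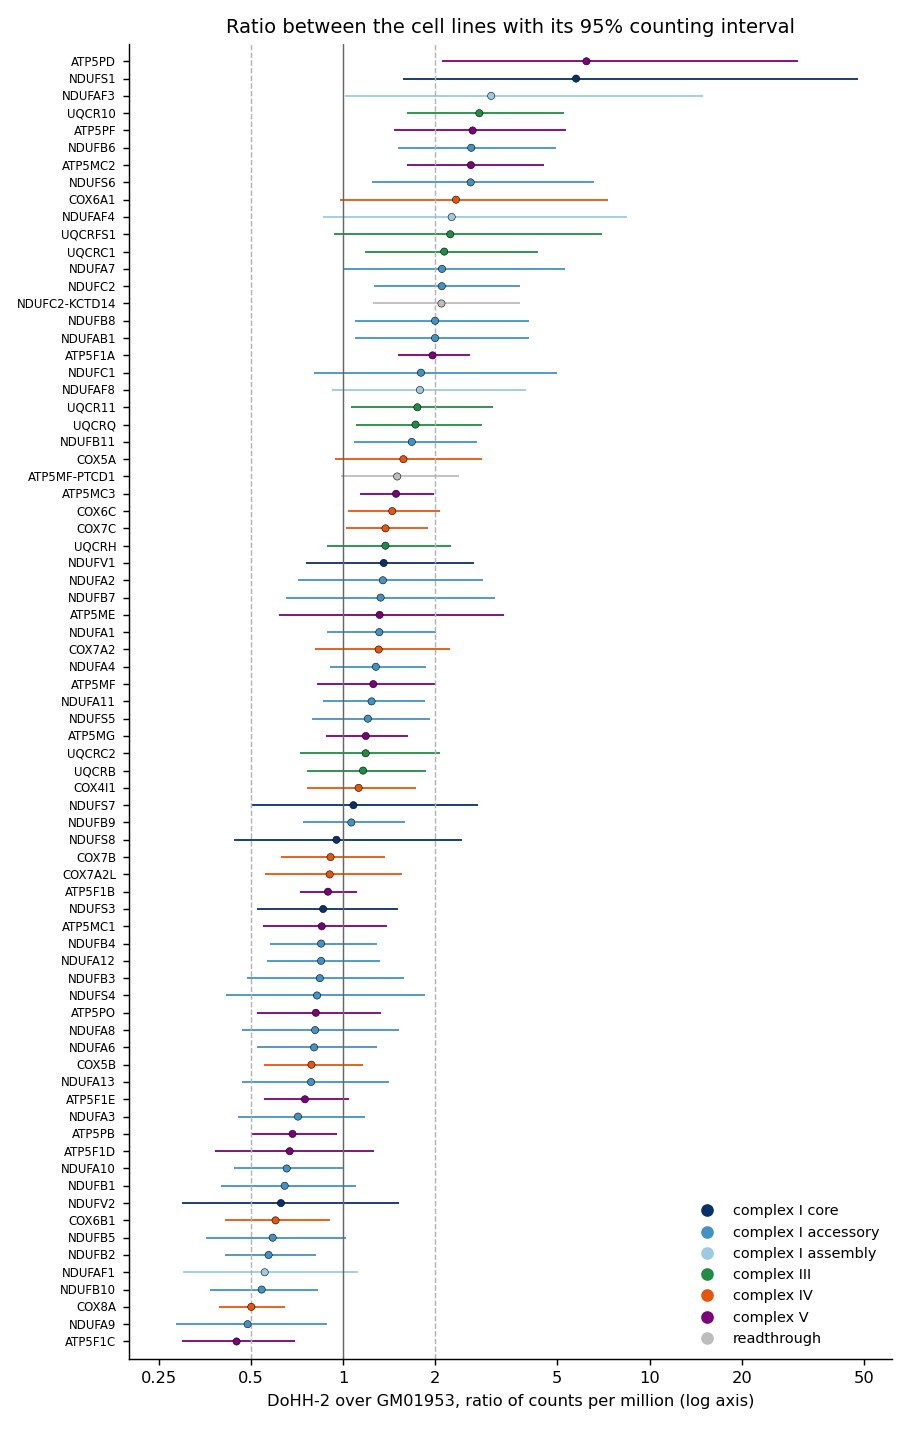
Ratio of CPM, DoHH-2 over GM01953, for 75 genes with a mean of at least 30 CPM, ordered by ratio and coloured by role, on a log axis with exact 95% counting intervals and dashed lines at 2-fold. The intervals of 48 genes hold 1, and the widest shown are those of NDUFS1, NDUFAF3 and ATP5PD, where GM01953 held 3 counts or fewer.

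Among the highest ratios were those of ATP5PD, NDUFS1, NDUFAF3 and UQCR10. ATP5PD, a peripheral stalk subunit, had 227 against 3, a ratio of 6.22 (2.10 to 30.4). NDUFS1, the largest core subunit, had 140 against 2, a ratio of 5.76 (1.56 to 48.0). Both ratios stood on at most 3 GM01953 counts. UQCR10, with 440 against 13 counts, had a ratio of 2.78 (1.61 to 5.27), and NDUFAF3, with 111 against 3, one of 3.04 (1.01 to 14.98).

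At the other end stood ATP5F1C, the gamma subunit that forms the rotor shaft, with 153 counts in DoHH-2 and 28 in GM01953, giving a ratio of 0.449 (0.299 to 0.699). NDUFA9, an accessory subunit of the hydrophilic arm, had 95 and 16 counts, giving 0.488 (0.286 to 0.889), and COX8A, with 476 and 78, one of 0.502 (0.394 to 0.646), just short of 2-fold. NDUFB10 followed at 0.543 (0.368 to 0.826) and NDUFAF1 at 0.555 (0.301 to 1.12). On the other side of the limit, NDUFAB1 and NDUFB8, each with 267 and 11 counts, were just short of 2-fold higher in DoHH-2, and NDUFC2-KCTD14, whose counts are nearly all those of NDUFC2, was just past it, at 2.09. Median ratios by group ran from 1.06 for complex I accessory subunits and 1.08 for the complex I core to 1.74 for complex III and 2.02 for the 4 assembly factors that passed the minimum level. A mean over both lines lets a gene pass on a high DoHH-2 value alone, and NDUFAF3 and NDUFAF4 had 3 and 4 GM01953 counts. The assembly factors below the level, NDUFAF2, NDUFAF5, NDUFAF6 and NDUFAF7, had ratios of 1.42, 0.641, 1.78 and 1.15. The value of 2.02 thus depends on this filter and on few GM01953 counts.

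Each mRNA was then divided into 5 regions, namely 5′ UTR, start codon with 50 nt to either side, coding sequence (CDS), stop codon with 50 nt to either side, and 3′ UTR, and the counts per nt of each region were expressed as a share of their sum. In DoHH-2, 81 of these mRNAs had more than 20 counts. Their median share was 39.2% around the start codon (95% interval of the median 33.4 to 41.1), 21.4% around the stop codon (17.8 to 25.1), 14.8% in the CDS, 3.14% in the 3′ UTR and 0% in the 5′ UTR. Over all 7597 such mRNAs the medians were 26.8%, 13%, 14.4%, 11.9% and 17.9%. The family thus had more of its density around both codons and less in both UTRs than the median mRNA.

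In GM01953, with 30 of these mRNAs above 20 counts, the medians were 37.8% around the start codon (26.9 to 52.9), 19.5% around the stop codon, 8.90% in the CDS, 1.56% in the 3′ UTR and 0% in the 5′ UTR, beside 23.9%, 0%, 11.8%, 4.45% and 15.4% over 972 mRNAs.

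Short leaders moved with this profile. The 5′ UTR of the respiratory chain mRNAs has a median of 53 nt, against 133 nt over all, and in 51 of 87 (58.6%, against 22.2%) it leaves fewer than 10 nt outside the window of the start codon, so that no 5′ UTR region was scored. Among mRNAs with such a short 5′ UTR, the median share around the start codon in DoHH-2 was 40.3% for 49 respiratory chain mRNAs (33.1 to 44.8) and 45.7% for all 1775 (43.7 to 47.0), so the family was no longer higher. The share around the stop codon was 27.0% (19.98 to 33.0) against 16.4% (15.5 to 17.2) in this comparison. In GM01953 the corresponding values were 37.3% against 30.6% around the start codon and 19.7% against 19.8% around the stop codon, from 13 and 206 mRNAs. Mitochondrial ribosomal protein mRNAs, with a median 5′ UTR of 31 nt, had 44.7% around the start codon and 16.6% around the stop codon in DoHH-2 (75 mRNAs), and cytosolic ribosomal protein mRNAs, with 42 nt, had 36.5% and 22.8% (77 mRNAs). The part of mRNA length in the stop codon difference was not tested, and the family's mRNAs are short, with a median of 799 nt against 2955 nt.

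**Figure D3:**
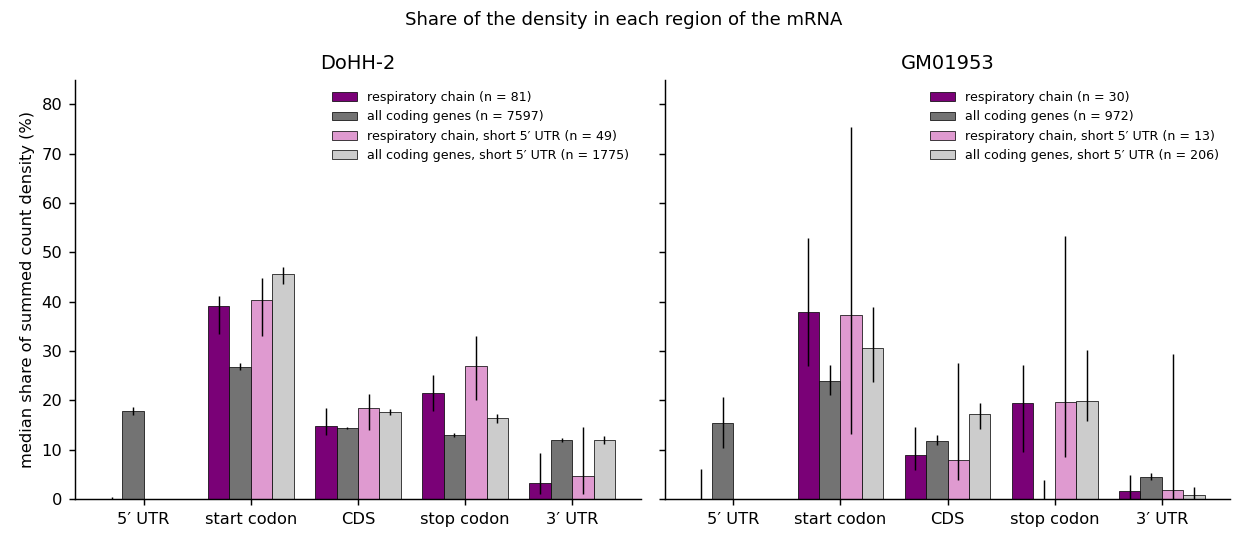
Median share of the summed count density in each of 5 mRNA regions for respiratory chain mRNAs and all protein-coding mRNAs with more than 20 counts, and for the subsets with fewer than 10 nt of 5′ UTR outside the start codon window, with 95% intervals of the median as bars. Around the start codon in DoHH-2 the respiratory chain stands at 39.2% against 26.8% for all genes, but at 40.3% against 45.7% among short 5′ UTRs.

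Single mRNAs differed widely in where their counts lay. A region was called dominant when it held at least 50% of the summed density, which was the case for 29 of the 81 mRNAs in DoHH-2 (35.8%, against 39.3% over all genes). The start codon region was dominant in 18 of the 81 (22.2%), beside 18.2% of all genes, and the stop codon region in 8 (9.88%), beside 4.37%. The 5′ UTR, CDS and 3′ UTR were dominant in 1 each, beside 11.7%, 1.83% and 3.19%. In GM01953, 10 of 30 had a dominant start codon region, beside 23.9%, 6 a stop codon region, beside 11%, 4 a 5′ UTR, beside 23.8%, and 1 each a CDS, beside 7.51%, or a 3′ UTR, beside 4.53%. The start codon region was thus dominant about as often as the background in DoHH-2. Its share in GM01953 was larger than the background, but it came from 30 mRNAs and the difference was not tested. Among mRNAs with a short 5′ UTR, it was dominant in 14 of 49 (28.6%) in DoHH-2, beside 43.2% of all such mRNAs. In GM01953 it was dominant in 5 of 13 of these (38.5%), beside 35.0%. The 5′ UTR could be dominant only where it was long enough to be scored, in 32 of the 81 mRNAs in DoHH-2 and 17 of the 30 in GM01953. Among scored 5′ UTRs the share was 3.13% in DoHH-2, against 15.3% over all genes, and 23.5% against 30.2% in GM01953, and with windows of 25 nt the DoHH-2 count was 8 in place of 1.

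The highest start codon shares of density in DoHH-2 were 78.3% for NDUFA9 and 70.9% for NDUFB5, from 19 of 79 and 38 of 123 mRNA counts. Both mRNAs had more counts in the longer CDS, 51 and 48. NDUFA11 followed with 70.7%, from 296 of its 452 mRNA counts. In GM01953 NDUFA11 was the highest, with 89.8% from 26 of 31 counts, followed by ATP5PB with 88.9% from 21 of 44 counts and NDUFA6 with 80.3% from 16 of 21. NDUFA6, an accessory subunit of complex I, was dominant in the stop codon region in DoHH-2, at 55.8% from 98 of 222 counts, so the lines differed in its leading region.

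The stop codon region led in ATP5PD, with 62.6% from 89 of 216 counts in DoHH-2, in ATP5ME, a small membrane subunit of ATP synthase, with 58.7% from 60 of 96, and in NDUFAF6, with 56.3% from only 3 of 23. In GM01953 it led in NDUFB11 (70.5%, 15 of 21 counts), ATP5MF (63.4%, 14 of 23) and ATP5MC3 (54.2%, 24 of 56). NDUFA4 was the 1 mRNA with a dominant 5′ UTR in both lines, with 54.0% from 135 counts in 46 nt in DoHH-2 and 59.8% from 11 counts in GM01953. In GM01953 the 5′ UTR also led in COX7B (65.9%, 12 counts), in ATP5F1A (58.01%, 3 counts in 15 nt) and in UQCRH (54.2%, 3 counts in 19 nt). ATP5F1C was dominated by its 3′ UTR in DoHH-2 (60.8%, 57 of 144 counts) and NDUFB2 by its 3′ UTR in GM01953 (60.1%, 18 of 39). NDUFAF5, an assembly factor, was dominated by the CDS in DoHH-2 (59.9%, 30 of 33 counts) and UQCRB in GM01953 (78.3%, 13 of 22).

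Of the 30 mRNAs with more than 20 counts in both lines, 17 (56.7%) had the same leading region in both, beside 54.3% of all 929 such mRNAs, and the start codon region led in both lines in 11 of the 17. Only 4 mRNAs had a dominant region in both lines, and it was the same in 3 of them, ATP5F1B, NDUFA11 and NDUFA4.

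**Figure D4:**
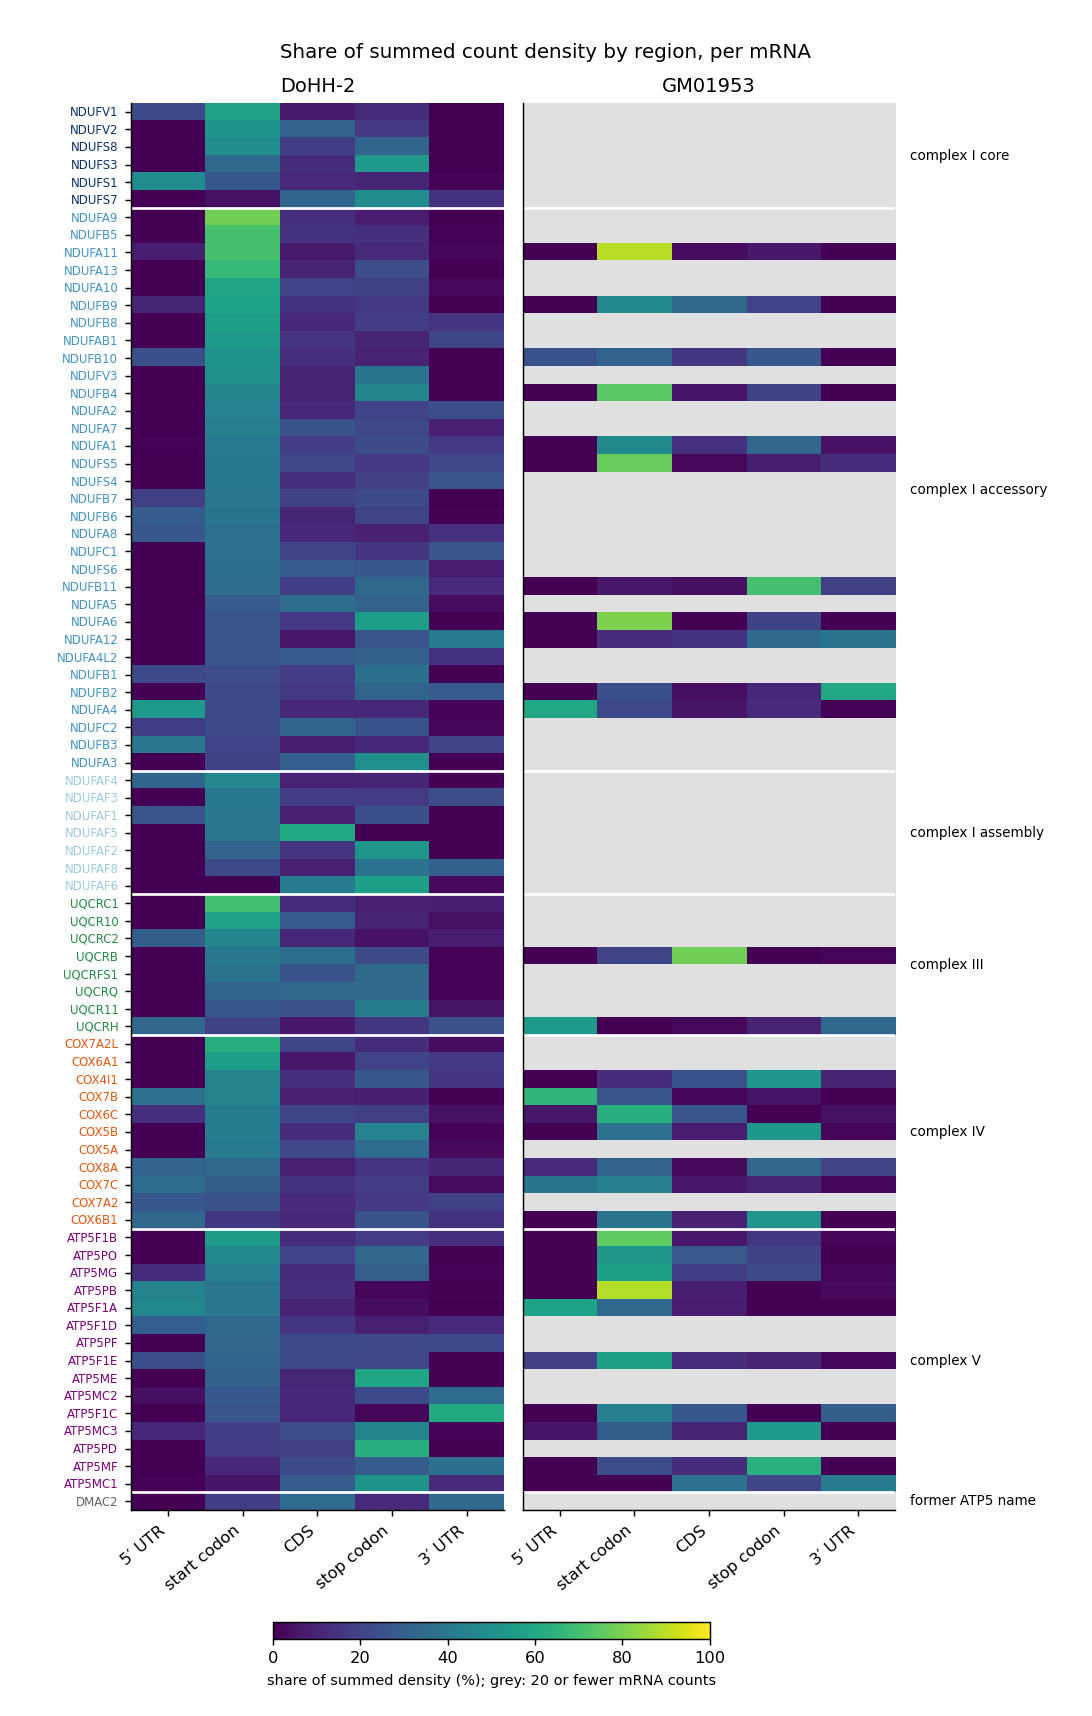
Share of the summed count density in each of 5 mRNA regions, on a colour scale from 0 to 100%, for 80 mRNAs with more than 20 mRNA counts in DoHH-2, with the same mRNAs in GM01953 at the right and grey where 20 counts were not exceeded. Rows are grouped by role and ordered by the share around the start codon, which reaches at least 50% in 17 rows in DoHH-2, and 30 rows carry values in GM01953.

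Within the codon windows the density was compared with an even spread over the mRNA, which gives a relative density of 1. In the 50 nt upstream of the start codon the median in DoHH-2 was 2.47 over 81 respiratory chain mRNAs and 1.62 over all mRNAs, in the 50 nt from the start codon 1.97 and 1.40, and in the next 50 nt 1.55 and 1.08. In the 50 nt from the stop codon it was 1.39 and 0.742. The medians fell from the leader into the reading frame in both sets. In GM01953 the respiratory chain medians were 2.66, 2.05 and 0.757 around the start codon and 0.975 from the stop codon, beside 0.502, 0.479, 0 and 0 over all mRNAs, most of which had few counts. Means were moved by single mRNAs, since 50 to 99 nt past the first base of the stop codon the DoHH-2 mean was 2.76 with UQCRB and 1.87 without it. UQCRB alone reached 72.4 there, from 136 counts on a reference mRNA of 8459 nt, and the GM01953 mean was 3.71 with it and 1.98 without.

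**Figure D5:**
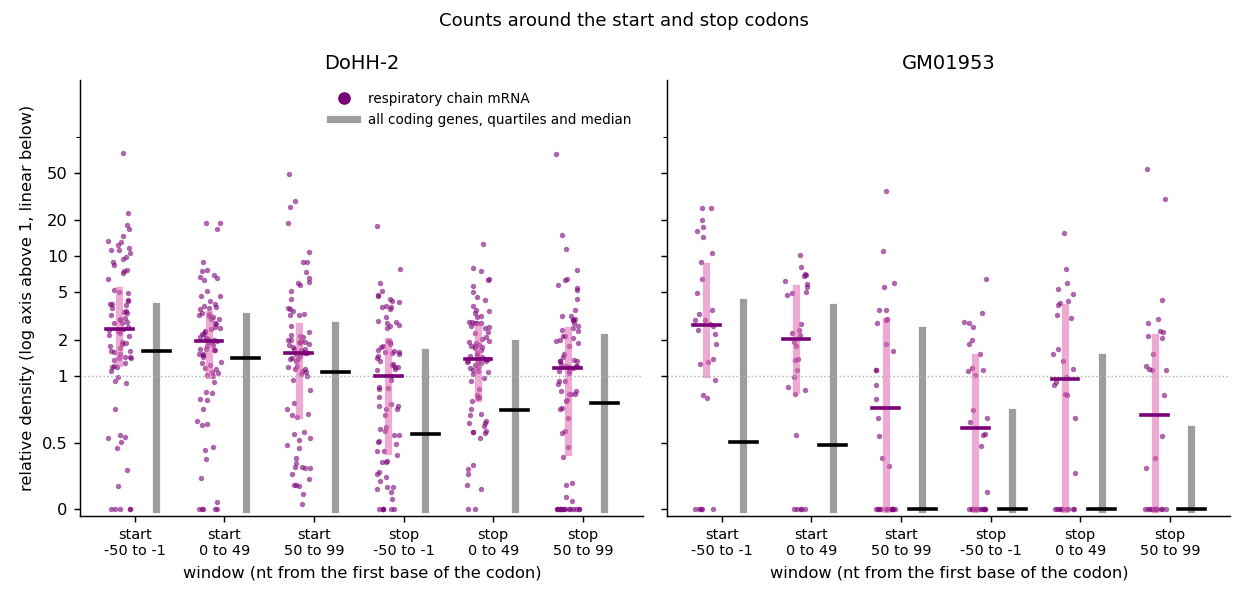
Relative density (1 is an even spread over the mRNA; log axis above 1 and linear below) in 3 windows of 50 nt at the start codon and 3 at the stop codon, with 1 point per respiratory chain mRNA, purple medians and pink quartile bars, and grey quartile bars with black medians for all protein-coding mRNAs. In DoHH-2 the medians of the respiratory chain fall from 2.47 upstream of the start codon to 1.55 in the window that begins 50 nt past it.

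At the start codon itself, counts differed from 1 nucleotide to the next. In DoHH-2 the nucleotide before the start codon held 125 counts over the family and the third base of the start codon held 100, while its first and second bases held 26 and 16. In GM01953 these were 15, 15, 0 and 0. Over all protein-coding mRNAs in DoHH-2 they were 2969, 3443, 835 and 571, the same order of these nucleotides except that the third base was the highest. High counts were not confined to the start codon, since the third base of the next codon held 98 in the family in DoHH-2. The base before it held 32. Over all protein-coding mRNAs in DoHH-2 these 2 bases held 1651 and 2057, the opposite order.

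The TISU core was searched as ATGGCGGC with its ATG at the annotated start codon, on the mRNA strand. It was present in 13 of the 87 respiratory chain mRNAs (14.9%), 537 of all 19061 (2.82%), 18 of 77 mitochondrial and 0 of 86 cytosolic ribosomal protein mRNAs. The 5 mRNAs below are among the 13 and had a dominant start codon region in DoHH-2. They are shown with the core in capitals and with the genomic position of the start codon.
UQCR10, chr22:29767399-29767401, plus strand: ctgtgaagaaacATGGCGGCcgcgacg
NDUFA9, chr12:4649127-4649129, plus strand: ttgtgggaaaagATGGCGGCtgccgca
NDUFB5, chr3:179604816-179604818, plus strand: cccgtagtagccATGGCGGCcatgagt
UQCRC1, chr3:48609618-48609620, minus strand: tgcagctggaagATGGCGGCgtccgtg
NDUFA13, chr19:19516239-19516241, plus strand: gatactgcgagtATGGCGGCgtcaaag

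UQCR10 has a 5′ UTR of 30 nt and held 188 counts around its start codon in DoHH-2, of which 13 fell in the core and 62 upstream of it, and 4 in GM01953. NDUFA13, an accessory subunit, has a 5′ UTR of 14 nt and held 63 counts in DoHH-2, with 7 in the core and 19 upstream, and 8 in GM01953. UQCRC1, a core protein of complex III, has 26 nt and held 60 counts, with 0 in the core and 43 upstream, and NDUFB5, with 22 nt, held 38 counts, with 0 in the core and 8 upstream. In NDUFA9, with 13 nt, 6 of 19 counts fell in the core and 9 upstream. The core takes up 8 nt of start codon regions of 66 to 83 nt in these mRNAs. Further mRNAs with the core were NDUFB11, NDUFA2, NDUFS6, NDUFS4, NDUFS3, DMAC2 and NDUFAF6. In DoHH-2 the start codon share had a median of 44.3% in the 13 mRNAs with the core (0 to 78.3) and 38.8% in the 68 without it (4.57 to 70.7), ranges that overlapped, and 6 of 13 against 12 of 68 had a dominant start codon region. These sets were not matched, since all 13 have 5′ UTRs of at most 47 nt and so no scored 5′ UTR region. Over the family's 49 mRNAs with a short 5′ UTR, the 13 included, the median was 40.3% and the region was dominant in 14. In GM01953 only 1 of the 13 had more than 20 mRNA counts.

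The cross-linked nucleotide was uridine for 38.3% of the family's mRNA counts in DoHH-2 (37.6 to 38.9), guanosine for 30.1%, cytidine for 22.2% and adenosine for 9.50%, while the mRNAs themselves hold 27.8%, 23.5%, 21.6% and 27.1%. In GM01953 the values were 39.4%, 30.9%, 23.1% and 6.59%. Adenosine was thus the scarcest at cross-links in both lines, at 0.351 and 0.244 of its share in the mRNA. Uridine was not confined to the assigned nucleotide. In DoHH-2 it made up 39.4% at the nucleotide before it and 40.45% at the one after. In GM01953 these were 39.35% and 41.7%. Guanosine fell to 12.1% at the nucleotide after it in DoHH-2 and to 10.2% in GM01953. Over all protein-coding mRNAs in DoHH-2 uridine made up 42.4% of cross-linked nucleotides, guanosine 24.1% and adenosine 11%. By counts, the family thus had less uridine and more guanosine at cross-links, by more than the counting error. That error takes counts as independent, although up to 43 lay at 1 position. With each position counted once, uridine was 32.6% in the family, so a difference from all genes was not established. In GM01953 the interval for uridine in the family, 36.9 to 41.9%, held the 39.9% of all genes, while guanosine was 30.9% (28.5 to 33.2) against 26.1%.

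Some counts could not be assigned to a single gene with confidence. The 31-nt sequence downstream of the position occurs elsewhere in the genome for 5.44% of the family's mRNA counts in DoHH-2 and 4.04% in GM01953. In DoHH-2 the share was 77.8% for UQCRHL, a near copy of UQCRH, 50% for ATP5MGL, a copy of ATP5MG, 36.1% for UQCRFS1, 17.6% for UQCRH, 16.7% for NDUFV2, 16.2% for NDUFB4, 15.7% for UQCRB, 14.6% for NDUFB1 and 14.5% for ATP5MG. It was above 10% in 16 of 86 mRNAs in DoHH-2 and in 10 of 80 in GM01953, where it was 30.4% for ATP5MF and 20.8% for ATP5F1C. Values of these genes, the ratio of ATP5F1C and the leading region of ATP5MF and UQCRB included, are uncertain to that extent.

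Genes of the same pathway outside the naming rule were measured in the same way. Of complex II, which oxidises succinate, SDHA held 238 counts in DoHH-2 and 10 in GM01953, SDHB 216 and 13, SDHC 81 and 0, and SDHD 66 and 3. CYCS, the electron carrier cytochrome c, held 560 and 41 counts, and CYC1, the cytochrome c1 of complex III, 175 and 7. These 6 genes together took 0.0657% of counts in DoHH-2 (0.0622 to 0.0693) and 0.0443% in GM01953 (0.0348 to 0.0556).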

How the data were processed

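The deposited tables hold, for each cell line, cDNA counts per cross-link position and an FDR (p-value scale) per position. The authors removed PCR duplicates (BBMap), demultiplexed with Je, trimmed and aligned reads (HISAT2, GRCh38), combined replicates, and called cross-link sites with iCount. Versions and annotation release are not given in the sources used here. Positions in the deposited tables count from 0, so 1 was added, and genes were matched by identifier to GENCODE v44 on the same build. A position listed for several genes was counted once in sums over a set. Regions under 10 nt were left out of density shares. Intervals are exact (Clopper-Pearson for shares, conditional binomial for ratios, order statistics for medians) at 95%. A line at 0 entered a ratio with 3 counts. With 1 pooled value per line, no test was run. Input RNA was not used here. A member gene and a marker gene are not reported here by name, and counts over the family include the former. The genes, lists and rules were chosen with earlier results of these data known. Genes named are, per role, the 3 highest in DoHH-2 and 2 highest in GM01953 by CPM, the 5 highest and lowest ratios, up to 3 leading genes per dominant region, genes at 0, and the succinate dehydrogenase and cytochrome c genes; others were named for printed sequences or limits after values were seen. Region calls were tested on simulated data. These had all 5 regions scored and more counts per mRNA than any family mRNA held in GM01953, so calls from few counts or without a scored 5′ UTR were not covered. Alternatives changed the FDR, count minimums, windows, transcript and totals. Python 3.11.15 was used with numpy 2.4.6, pandas 2.3.3 and scipy 1.17.1.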

Additional observations from a re-analysis of the deposited data

Results flagged for a closer look

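Rows whose names match the family but whose genes are not protein-coding were outside every comparison above, and 16 of them held more than the 3 counts that a count of 0 allows. In DoHH-2 these were the pseudogenes NDUFV2P1 with 47 counts, ATP5EP2 with 25, UQCRFS1P1 with 19, COX7CP1 with 17, ATP5LP2 with 11, ATP5F1P7 with 7, ATP5A1P2, ATP5LP3, COX4I1P1 and NDUFB1P1 with 5 each, and ATP5C1P1, ATP5G1P7, COX6A1P2 and NDUFS5P5 with 4 each, and the antisense transcripts NDUFA6-AS1 with 23 and NDUFB2-AS1 with 4. NDUFV2P1 thus held 47 counts beside 61 in its parent gene NDUFV2. All such rows together held 240 counts in DoHH-2, 208 of them in pseudogenes, and 17 in GM01953.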

How the results depend on the processing

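No paired analysis was possible because the deposited tables hold 1 pooled value per cell line, and for the same reason no replicate could be left out. Over 32 results and 134 alternatives, 82 values stayed within counting error or 1.5 times the count given above and 52 moved, and the cause of these moves was not tested beyond what each alternative's construction shows. The share of counts at FDR below 0.05 was 2.07% in DoHH-2, with each position once 0.958% and 1.15% (GM01953), in exons of the reference transcripts 1.06% and 0.907%, and without histone genes 1.36% and 1.09%. Bound genes numbered 37 in DoHH-2 after thinning without the FDR filter, beside 7.65% of all genes. In GM01953 they numbered 1 with more than 50 counts (beside 0.963%), 37 with more than 10 (10.7%) and 33 without the filter (7.44%).

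With 25 nt to either side of a codon, DoHH-2 medians became 9.18% (5′ UTR), 33.3% (start codon) and 16.7% (stop codon), and the dominant counts were 8 (5′ UTR), 2 (CDS) and 3 (3′ UTR), with 3 (stop codon) and 2 (3′ UTR) in GM01953. At FDR below 0.05 the DoHH-2 medians were 41.5% (start codon) and 17.2% (stop codon), the CDS median in GM01953 was 4.10%, and the 5′ UTR was dominant in 2 and 1 mRNAs and the CDS in 0 in GM01953. With mRNAs of more than 50 counts alone, the 5′ UTR median in GM01953 was 9.16%. At a limit of 70%, the start codon region was dominant in 3 mRNAs in DoHH-2 and 6 in GM01953, the stop codon region in 0 and 1, the 5′ UTR and 3′ UTR in 0 in both lines, and the CDS in 0 in DoHH-2. With the longest coding transcript, the CDS was dominant in 3 mRNAs in DoHH-2 and the 3′ UTR in 0 in GM01953. No share over all genes is given for the dominant counts of these alternatives, so they have no background. For the restriction to short 5′ UTRs, chosen after seeing the data, the stop codon median was 27.0% in DoHH-2.

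At least 2-fold higher CPM in DoHH-2 was found for 43 of 77 genes at FDR below 0.05, beside 17.4% of all genes. At a minimum of 60 CPM it was found for 10 of 62, beside 16.5%, so about the background share. At least 2-fold higher CPM in GM01953 was found for 4 of 77 at FDR below 0.05, beside 48.7%. In reference exons it was 4 of 73, beside 19.9%, and without histone genes 1 of 78, beside 17.2%. Positions shared within 1 nt made up 85.4%. In DoHH-2, adenosine and uridine made up 13.4% and 32.6% of positions counted once, and 8.93% and 40.3% of counts at FDR below 0.05, where uridine was 42.1% in GM01953. Over all protein-coding genes, a comparison chosen after seeing the data, adenosine was 11% and 9.08% and uridine 42.4% in DoHH-2. Leaving out the readthrough genes and former ATP5 names, also chosen after seeing the data, moved neither share nor bound count beyond these limits. The smaller depth of GM01953 (167197 counts against 2033156) limits every value of that line.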

Other observations

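The 13 mRNAs of the mitochondrial genome encode the partners of these subunits in complexes I, III, IV and V and are translated inside mitochondria, and they were looked at after the other values were known. All 13 had counts in both lines. Together they held 3588 counts in DoHH-2 (0.176%, exact 95% interval 0.171 to 0.182) and 303 in GM01953 (0.181%, 0.161 to 0.203). MT-CO1, the catalytic subunit of complex IV, led with 941 and 76 counts, followed in DoHH-2 by MT-ND5 with 518 and MT-ND2 with 508, and MT-ND6 was lowest per length in both lines. Per kb of gene, the median was 92.8 CPM in DoHH-2 (45.9 to 300) and 125 CPM in GM01953 (22.8 to 295), beside 113 and 73.7 CPM per kb of mRNA for the nuclear-encoded family. Of the 13, 9 were bound by the same call in DoHH-2, beside 21.8% of all protein-coding genes, and 3 in GM01953, beside 4.22%. Whether these counts come from contacts with eIF4B was not tested.

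Other genes with ATP5 symbols in GENCODE v44 are listed under older names and so fell outside the rule. ATP5MJ held 216 counts in DoHH-2 and 20 in GM01953, ATP5MK 212 and 10, and ATP5IF1, the inhibitor of ATP synthase, 142 and 12. COX4I2, COX6A2, COX6B2 and COX7A1, known as tissue-specific forms of complex IV subunits, had no row in either line.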
